A study of Homo sapiens with 6 samples.

Results

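The genes of the cytosolic ribosome were compared between 2 sugars in MDA-MB-231, a long-established line of human triple-negative breast cancer cells. Members were the protein-coding genes whose symbol is RPL or RPS with a number, with or without a closing A, L or X, together with RPLP0, RPLP1, RPLP2 and RPSA. A probe set counted when its annotation named 1 such gene alone or with snoRNAs, and probe sets that also named pseudogenes or other genes were left out. Of the 28230 tested probe sets 101 met the rule, and they measured 63 genes, 40 of the large subunit and 23 of the small subunit. The current RefSeq gene table holds 81 genes of these names. The other 18, among them RPLP0, RPSA, RPL15 and RPS18, had no such probe set and were not analysed here. Each gene was represented by its brightest probe set, and 22 genes had more than 1. Probe sets were assigned by the symbols in the annotation alone, and whether each matches the gene's own locus was not checked.

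The glucose group comprised 3 arrays of cells kept in DMEM with 25 mM glucose, and the fructose group 3 arrays of cells kept in DMEM with 10 mM fructose. Both groups were passaged in their medium for 25 days and harvested at about 70% confluency, some 24 hours after a medium change. Per the design text of the series, each array held total RNA of a separately adapted batch of this single line, so p-values measure the spread between such batches. Which sugar was given, at what concentration, and whether glucose was present all changed at once and cannot be told apart. By its title, the series asks how restricted glycolysis alters gene expression. In bulk RNA of this kind, fewer cells with a transcript and less of it in each cell cannot be told apart.

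Array medians lay between 31.5 and 33.5 intensity units, and single intensities between 2.15 and 9287. Precision is limited by having 3 arrays in each group. All 6 of 6 marker genes that MDA-MB-231 is known to express (VIM, CD44, AXL, MET, CAV1, ANXA1) were brighter than the median tested probe set, and of ESR1, PGR, CDH1 and GATA3, which it lacks or has at low level, 1 was (GATA3). Of 7 luminal markers 4 were above that median (GATA3, KRT18, XBP1 and AGR2), with summed intensities of 967 to 1072 in glucose and 988 to 1442 in fructose. AGR2 varied most, with 269, 342 and 281 in glucose and 591, 205 and 456 in fructose. XBP1 was higher on every fructose array (0.36, limma adjusted p = 0.21), and in the rest of the luminal list the groups overlapped. Of 7 leukocyte markers 5 were measured and 1 was above the median, with sums of 131 to 143 in glucose and 150 to 154 in fructose, which do not overlap. The marker above the median was ITGB2, with 63.5, 71.7 and 67.3 in glucose and 87.5, 88.4 and 89.4 in fructose. Of the other 4, LYZ was lower on every fructose array (-0.30, limma adjusted p = 0.31), the groups overlapped in PTPRC, CD3E and CD14, and the pan-leukocyte gene PTPRC was brighter than only 7.62% of tested probe sets. Of 7 fibroblast markers 1 was above that median (COL1A1), with sums of 127 to 128 in glucose and 119 to 127 in fructose. COL1A1 (-0.15, limma adjusted p = 0.48) and PDGFRB (-0.12) were lower on every fructose array, and FAP was higher on every one (0.12). In the rest of the fibroblast list the groups overlapped. The part of the luminal, leukocyte and fibroblast sums in the results on ribosomal protein genes was not tested.

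Ribosomal proteins surround the ribosomal RNAs of the large subunit, which forms peptide bonds, and of the small subunit, which reads the mRNA. Because every ribosome needs nearly every protein in similar number, cells keep the synthesis of these proteins in step, and much of that control acts on translation. Most of their mRNAs begin with a C followed by a run of pyrimidines, the TOP tract, through which mTORC1 and LARP1 regulate their translation in response to nutrients. An array measures RNA amounts and not that translational control. Several of these genes also carry snoRNAs in their introns, the guide RNAs for chemical modification of ribosomal RNA, which are released from the spliced intron.

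The start sites of the members the comparison turns on are printed first, because the TOP tract is the sequence feature that the family shares and that was not used in choosing it. Each line holds 15 bases before the start annotated by RefSeq and 15 bases from it (GRCh38.p14, 5′ to 3′ on the gene's strand). Capitals mark a C with at least 4 further pyrimidines that begins within 5 bases of that start. Where several starts are listed, for RPL10 and RPL11, the one with the tract at the start is shown.
RPL12, chr9:127451392-127451421, minus strand: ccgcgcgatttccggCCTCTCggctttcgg
RPL3, chr22:39319609-39319638, minus strand: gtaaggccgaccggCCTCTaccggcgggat
RPL28, chr19:55385917-55385946, plus strand: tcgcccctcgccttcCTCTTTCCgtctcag
RPS28, chr19:8321481-8321510, plus strand: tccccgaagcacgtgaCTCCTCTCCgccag
RPL10, chrX:154398362-154398391, plus strand: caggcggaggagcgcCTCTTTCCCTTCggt
RPL17, chr18:49492451-49492480, minus strand: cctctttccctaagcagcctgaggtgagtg
RPS3, chr11:75399503-75399532, plus strand: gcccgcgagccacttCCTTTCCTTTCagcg
RPS6, chr9:19380222-19380251, minus strand: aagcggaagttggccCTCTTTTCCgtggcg
RPL11, chr1:23691791-23691820, plus strand: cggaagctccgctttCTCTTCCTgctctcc
RPS27, chr1:153990747-153990776, plus strand: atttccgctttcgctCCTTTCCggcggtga
RPS27L, chr15:63157463-63157492, minus strand: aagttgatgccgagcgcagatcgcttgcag
RPL10L, chr14:46651767-46651796, minus strand: caggcgtagttaagagagcgcattttgact

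RefSeq start windows matched 51 of the 63 members. A C with at least 4 further pyrimidines stood exactly at a listed start in 37 of them (72.5%), against 6.24% of 15843 genes with a window. Allowing the tract to begin up to 5 bases away gave 44 members (86.3%), 28 of the large and 16 of the small subunit, against 28.0% of all genes. The 7 members without it there were RPL10L, RPL17, RPL27, RPS15, RPS27L, RPS29 and RPS4X, so neither paralog with a window had the tract near a listed start. Tracts farther away were not counted, and whether the listed starts are those used in these cells was not checked. The window printed for RPL17 lacks the tract at the listed start but holds a run of pyrimidines farther upstream. In the 300 bases around the start, searched on both strands, the GABP motif CCGGAAG was found in 19 members (37.3%, all genes 16.5%) and the SP1 motif GGGCGG in 32 (62.7%, all genes 64.3%). The YY1 motif AANATGGC was found in 8 members (15.7%, all genes 9.67%), the E-box CACGTG in 3 (5.88%, all genes 10.9%) and TATAAA in 5 (9.8%, all genes 12.4%). None of these motifs contains another one of the list. The 37 members with the tract at the start had a median difference between the sugars of 0.000574, and the members without it 0.0269, both as log2 intensity in fructose minus glucose and without a test.

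No cytosolic ribosomal protein gene passed the test between the sugars, and the differences were small and of both signs. Of the 63 genes 32 were higher in fructose and 31 lower, the median difference was 0.000574 (log2, as are all differences given here), and single genes lay between -0.38 for RPL17 and 0.14 for RPL12. The median size of a difference, regardless of sign, was 0.0407, where all tested probe sets had 0.0971. By limma with Benjamini-Hochberg adjustment over all 28230 probe sets, 0 members passed 0.05, and the smallest adjusted p was 0.29, while 1 tested probe set did pass (0.00354%). At an unadjusted limma p under 0.05 there were 2 members (3.17%), RPL10 and RPL17, both lower in fructose, where 13.1% of all tested probe sets reached that level. Single genes were tested with limma alone, and its other settings also called 0 members. The number at an unadjusted p under 0.05 depended on the setting and reached 9 of 63 with trended and robust variances. For that setting the share of all tested probe sets was not computed.

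The groups did not overlap in 11 of the 63 members (17.5%), 6 higher and 5 lower in fructose, and in 20.2% of all tested probe sets. Most of these genes have bright probe sets. Of the 735 tested probe sets with a mean log2 intensity of at least 10, the groups did not overlap in 37.8%, and 10.2% had an unadjusted p under 0.05. Among the 48 members at least as bright, 7 did not overlap (14.6%) and 1 had an unadjusted p under 0.05. The median size of a difference was 0.0647 in the bright probe sets and 0.0367 in the bright members.

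The intervals bounded the size of most differences in the brightest probe set of each gene. They did not bound the other probe sets. In RPS3A another probe set differed by -0.51, where the interval of the brightest was -0.2 to 0.11. The median standard error of the members was 0.0673, and the 95% interval of the difference lay within 1.25-fold in either direction for 60 of 63 members (95.2%) and within 1.5-fold for 62. For all tested probe sets these shares were 45.1% and 89.7%, and for the bright ones 85.0% and 99.5%. The 3 members whose interval went beyond 1.25-fold were RPL17, RPL10 and RPS29, and RPL17 alone went beyond 1.5-fold.

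**Figure D1:**
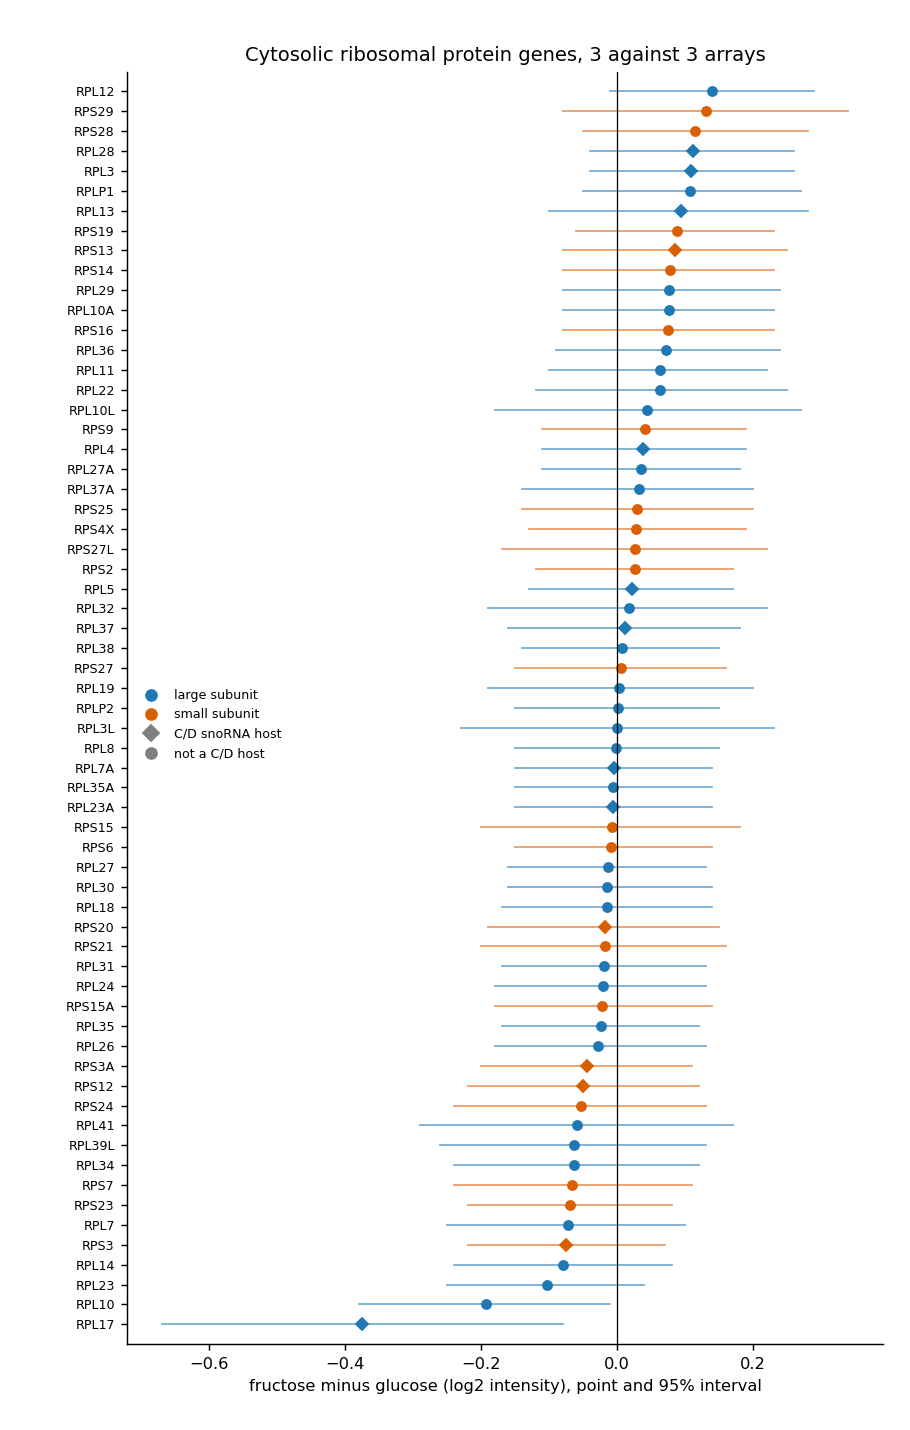
Difference of each of the 63 genes between the sugars (x axis, fructose minus glucose, log2 intensity), ordered by its size, with points for the fitted value and lines for the 95% interval from limma. Blue marks the large and orange the small subunit, and diamonds mark hosts of C/D box snoRNAs; the intervals of RPL10 and RPL17 alone leave out 0.

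In the large subunit 20 genes were higher and 20 lower, with a median difference of 8.48e-05 and a median size of 0.0367. RPL12, which forms the base of the stalk where elongation factors bind, had intensities of 3479, 3558 and 3603 in glucose and 3855, 4010 and 3858 in fructose. Every fructose array was above every glucose array. The difference was 0.14 (SE 0.06, 95% interval -0.01 to 0.29, limma adjusted p = 0.40), and all 4 probe sets of RPL12 were higher in fructose, by 0.06 to 0.14. RPLP1, an acidic protein of the same stalk, read 4250, 4263 and 4444 in glucose and 4770, 4774 and 4420 in fructose. Fructose replicate 3 lay inside the glucose range, and the difference was 0.11 (SE 0.07, limma adjusted p = 0.55). The other probe set of RPLP1 differed by -0.03 (SE 0.12), also with overlap. RPLP2, the partner of RPLP1, differed by 0.000574 (SE 0.06), with overlapping groups.

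RPL3, which reaches close to the peptidyl transferase centre, had intensities of 2788, 2862 and 2741 in glucose and 2978, 2951 and 3114 in fructose, and RPL28 had 822, 800 and 850 against 891, 904 and 874. In both genes each fructose array was above each glucose array. Both differed by 0.11 (SE 0.06), with limma adjusted p-values of 0.52 for RPL3 and 0.51 for RPL28. RPL27A was the remaining large-subunit gene with every fructose array higher, at 0.04 in its brightest probe set. Its dimmer probe sets were higher by 0.24, with groups apart, and by 0.16, with overlap.

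RPL17, which lines the tunnel through which the new peptide leaves, had the largest difference of the family, from a dim probe set. Its intensities were 148, 180 and 156 in glucose (161 ± 16.7, SD, n = 3) and 135, 134 and 105 in fructose (125 ± 17.2, SD, n = 3). All fructose arrays were below all glucose arrays, with fructose replicate 3 the lowest. The difference was -0.38 (SE 0.13, 95% interval -0.67 to -0.08), with an unadjusted p of 0.020 and an adjusted p of 0.29 by limma. RPL10, which joins the large subunit late in its assembly and is needed for it to pair with the small subunit, read 1134, 1253 and 1293 in glucose and 1039, 1128 and 1050 in fructose. Its groups also did not overlap, and the difference was -0.19 (SE 0.08, 95% interval -0.38 to -0.01, limma adjusted p = 0.37).

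The sign of the RPL10 difference depended on the probe set. A second probe set, whose annotation joins RPL10 with its intronic SNORA70, read 338, 368 and 439 in glucose and 513, 471 and 473 in fructose. There every fructose array was the higher one, by 0.35 on average (SE 0.11, unadjusted p = 0.013, limma adjusted p = 0.26). Another probe set with the same pair of names was higher by 0.24, with overlapping groups. How much of either signal comes from the mRNA and how much from the snoRNA cannot be told from these values.

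RPL23, a large-subunit protein at the contact with the small subunit, had 152, 152 and 147 in glucose and 141, 141 and 138 in fructose. All fructose values were lower in a narrow range, and the difference was -0.10 (SE 0.06, limma adjusted p = 0.52). RPL14 read 3346, 3196 and 3182 against 3087, 3198 and 2919, and RPL27, the brightest of the large subunit, 6148, 6208 and 6313 against 6071, 6234 and 6189. In both the groups overlapped, with differences of -0.08 and -0.01. The other probe set of RPL14 had the opposite sign, at 0.04, also with overlap.

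RPL5 and RPL11 travel with the 5S ribosomal RNA and, when ribosome assembly is disturbed, bind MDM2 and thereby stabilise p53. RPL5 had intensities of 5143, 5219 and 4934 in glucose and 5232, 5101 and 5195 in fructose, and RPL11 had 3757, 3839 and 3792 against 4066, 4086 and 3753. In both genes the groups overlapped, and in RPL11 fructose replicate 3 was below all glucose arrays while the other two were above them. The differences were 0.02 (SE 0.06, limma adjusted p = 0.92) and 0.06 (SE 0.07, limma adjusted p = 0.74). RPL22 read 567, 602 and 594 against 652, 629 and 564, and showed the same order of its fructose arrays around the glucose range. The values of RPL5 are from its brightest probe set. Its other 2 probe sets both differed by -0.09, and in the dimmer one every fructose array was lower.

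In the small subunit 12 genes were higher and 11 lower, with a median difference of 0.00495 and a range of -0.08 to 0.13. None of the 23 had an unadjusted limma p under 0.05, and the smallest adjusted p was 0.53. RPS28, one of the brightest members, read 5747, 5929 and 5892 in glucose and 6128, 6163 and 6733 in fructose. All fructose arrays were higher, by 0.11 on average (SE 0.07, limma adjusted p = 0.53), and fructose replicate 3 was the highest. These values are from its brightest probe set. The other probe sets of RPS28 differed by 0.07 and 0.01 with overlapping groups, and in both fructose replicate 3 was the lowest fructose array. RPS19, the gene most often mutated in Diamond-Blackfan anaemia, had 3080, 3115 and 3081 against 3241, 3370 and 3245. It was the other small-subunit gene with every fructose array higher, by 0.09 (SE 0.06).

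RPS3, at the channel where mRNA enters, had 4468, 4324 and 4501 in glucose and 4288, 4211 and 4117 in fructose. RPS23, a protein of the decoding centre, had 565, 591 and 572 against 538, 554 and 555. In these 2 genes every fructose array was lower, with differences of -0.08 and -0.07 and limma adjusted p-values of 0.66 and 0.69. RPS29 had the largest small-subunit difference at 0.13 (SE 0.09, limma adjusted p = 0.58), from 189, 169 and 195 in glucose and 216, 187 and 203 in fructose, which overlap. RPS6, the substrate of the S6 kinases downstream of mTORC1, read 3833, 3781 and 3789 against 3816, 3814 and 3704. Its groups overlapped and it differed by -0.01 (SE 0.06, 95% interval -0.15 to 0.14). RPS2, at the same mRNA entry channel and with the brightest probe set, read 6560, 6266 and 6478 against 6668, 6518 and 6460, with a difference of 0.03 (SE 0.06) and overlapping groups. The other probe sets of RPS2 differed by -0.02, -0.06 and -0.06, also with overlap.

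The median of the large subunit minus that of the small subunit was -0.00487. Computed for each array against the glucose mean, this gap was -0.0107, 0.0201 and -0.02 in glucose and -0.00618, -0.0102 and 0.0226 in fructose. The groups overlap, so the subunits were not separated by sugar beyond the spread between arrays.

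**Figure D2:**
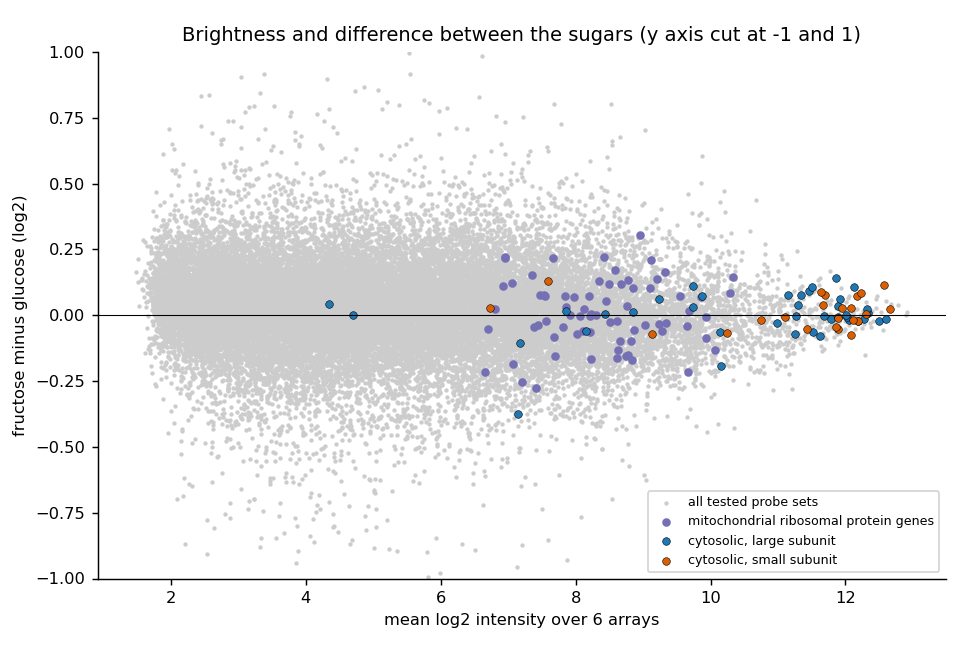
Mean log2 intensity over the 6 arrays (x axis) against the difference between the sugars (y axis, fructose minus glucose, log2) for tested probe sets in grey, mitochondrial ribosomal protein genes in purple, and large-subunit (blue) and small-subunit (orange) genes of the cytosolic ribosome. The y axis ends at -1 and 1, which leaves 22 probe sets outside, none of them a ribosomal protein gene; the cytosolic genes crowd at the bright end, close to 0.

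Array by array, the median of the members shifted by small amounts. Their median deviation from the glucose mean was -0.00385, -0.00342 and 0.00989 in the glucose arrays and 0.0157, 0.024 and -0.04 in the fructose arrays. Fructose replicate 3 was the lowest of all and the other two fructose arrays the highest, so the near-zero median of the family averages fructose arrays on both sides of glucose. The same array was also lowest in the 735 bright probe sets (-0.0390, against -0.000416 and 0.00574 in the other fructose arrays) and in the mitochondrial ribosomal protein genes. Over all tested probe sets it was not the lowest, with 0.0338, -0.00089 and 0.0234 in fructose replicates 1 to 3. The part of brightness in the position of fructose replicate 3 was not tested. Leaving this array out gave a median over the members of 0.017, and still 0 members called.

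**Figure D3:**
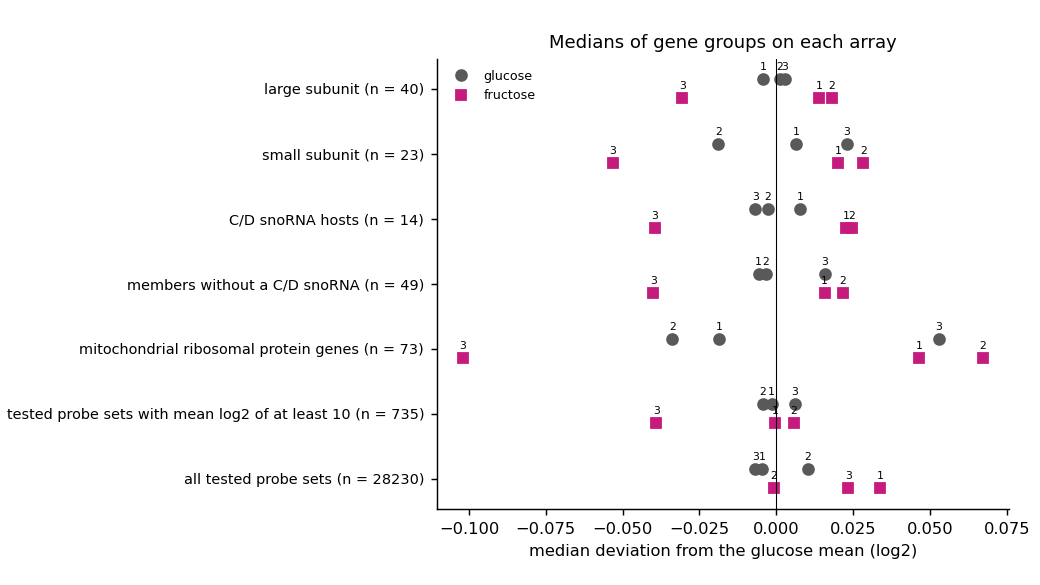
Median deviation of gene groups from the glucose mean (x axis, log2) on each of the 6 arrays, with grey circles for glucose and pink squares for fructose and the replicate number above each. In both subunits and in hosts and other members, fructose replicates 1 and 2 lie above 0 and fructose replicate 3 lies below all other arrays.

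The ribosome of mitochondria has its own set of nuclear-encoded proteins, which served for comparison. Its 73 measured genes were likewise split, 36 higher and 37 lower, with a median of -0.000337 and 0 called (smallest limma adjusted p = 0.24). They ran from -0.28 to 0.30 with a median size of 0.0833, above the 0.0407 of the cytosolic genes and below the 0.0971 of all tested probe sets. An unadjusted p under 0.05 was found for 8 of the 73, beside 13.1% of all tested probe sets. The 95% interval lay within 1.25-fold in 48 of the 73 (65.8%). They were also dimmer than the cytosolic set, with a median mean log2 intensity of 8.43 against 11.64, and the difference in spread between the families was not tested.

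C/D box snoRNAs guide the methylation of ribosomal RNA, and 14 members hold at least 1 of them within their RefSeq span, 9 in the large and 5 in the small subunit. Of the hosts 7 were higher and 7 lower, with a median of 0.00372, and of the other 49 members 25 were higher and 24 lower, with a median of 0.000574. The gap between the medians was 0.00314. By array it was 0.0135, 0.00077 and -0.0225 in glucose and 0.00698, 0.0031 and 0.000341 in fructose, so every fructose value lay within the glucose range. Counting hosts of any snoRNA, 22 genes, gave a gap of 0.00644, also with overlap.

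The hosts were also read within each subunit, a split described after its values were seen. The 5 small-subunit hosts RPS3, RPS3A, RPS12, RPS13 and RPS20 had a median of -0.0443, 1 higher and 4 lower, and the 18 other small-subunit genes one of 0.0257. Their gap by array was 0.0189, -0.00961 and 0.00162 in glucose and -0.0438, -0.0642 and -0.0334 in fructose, which do not overlap. In the large subunit the gap was 0.0243 and the groups overlapped. None of the 5 small-subunit hosts passed the test, and the one that was higher, RPS13, read 4728, 4478 and 4757 in glucose and 5024, 5087 and 4698 in fructose, a difference of 0.08 (SE 0.07, limma adjusted p = 0.65).

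Separate probe sets for snoRNAs were matched to member genes by the snoRNA symbol alone, and the locus of their probes was not checked. This gave 20 probe sets in 13 hosts. Of these 5 were higher and 15 lower in fructose, where 12374 of all 28230 tested probe sets were lower, and the differences had a median of -0.19 and a range of -0.50 to 0.23. None passed limma's adjusted threshold (0 of 20), and 5 had an unadjusted p under 0.05, beside 13.1% of all tested probe sets. The groups did not overlap in 6, all of them lower in fructose (8.81% of all tested probe sets). The 12 C/D probe sets had a median of -0.25 and the 7 H/ACA probe sets, which guide pseudouridylation, one of -0.14, and a further probe set names both kinds. In 15 of the 20 the snoRNA difference was below that of its host, with a median gap of -0.21, and the gap was not tested. SNORA10, matched to RPS2 by its symbol, read 167, 136 and 140 in glucose and 116, 113 and 107 in fructose, all lower. Its difference was -0.40 (SE 0.10, limma adjusted p = 0.20) where the brightest probe set of RPS2 had 0.03. SNORD58A in RPL17 read 56.5, 74.3 and 62.4 against 42.1, 56.6 and 38.6, with a single fructose array inside the glucose range and a difference of -0.50 (SE 0.16, limma adjusted p = 0.29) beside the host's -0.38. SNORA65 in RPL12 differed by -0.19 with groups apart, where RPL12 was higher. The median standard error of the 20 differences was 0.11, larger than the 0.0673 of the members.

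**Figure D4:**
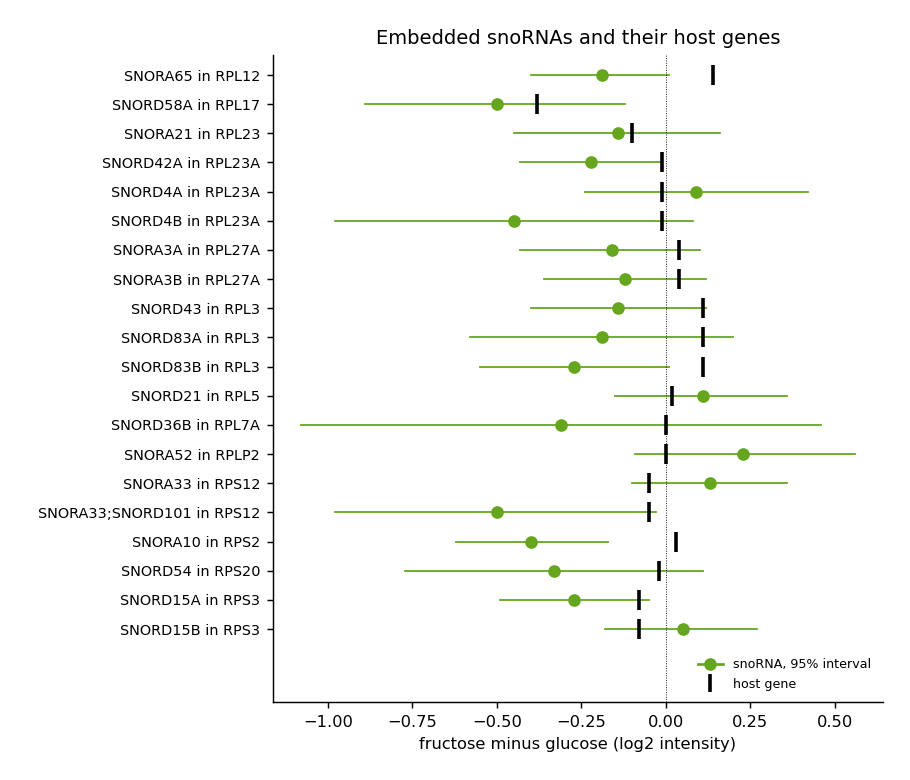
Difference between the sugars (x axis, fructose minus glucose, log2 intensity) of 20 probe sets for snoRNAs (green points, 95% interval from limma) and of the ribosomal protein gene matched to each by snoRNA symbol (black bars). Of the green points 15 lie below 0, while most hosts lie close to 0.

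Paralogs with a closing L were read beside their parent genes. RPL10L, an intronless copy expressed in testis, read 21.8, 19.3 and 19.2 in glucose and 22.0, 18.5 and 21.8 in fructose, and RPL3L, the form of striated muscle, 25.7, 24.5 and 28.0 against 25.6, 23.7 and 28.9. Both were dimmer than any other member and their groups overlapped, with differences of 0.04 and -0.000405. RPS27L, a p53 target, read 101, 109 and 105 against 108, 116 and 98.4, and its parent RPS27 read 5080, 5091 and 5002 against 5221, 5113 and 4896. Both pairs of groups overlapped, with differences of 0.03 and 0.00495. RPL39L read 1082, 1121 and 1250 against 1134, 1134 and 1034, a difference of -0.06 (SE 0.08), and its parent RPL39 was not analysed here. Paralogs share sequence, and how the array's probes divide their signal was not tested.

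In the 22 genes with more than 1 probe set, all probe sets had the same sign in 9 genes and differed in sign in 13. The range between the probe sets of a gene had a median of 0.115 and reached 0.55 in RPL10 and RPS3A, where the median size of a member's difference was 0.0407. RPS3A had 6 probe sets from -0.51 to 0.04. The probe set with the lowest value read 221, 178 and 215 in glucose and 124, 141 and 167 in fructose, all lower (SE 0.13, unadjusted p = 0.0062, limma adjusted p = 0.22). The brightest read 3881, 3785 and 3662 against 3773, 3638 and 3575, with overlap and a difference of -0.04. Of the 38 probe sets that did not represent their gene, 5 (13.2%) had an unadjusted p under 0.05, beside 13.1% of all tested probe sets, and their median size was 0.0846.

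**Figure D5:**
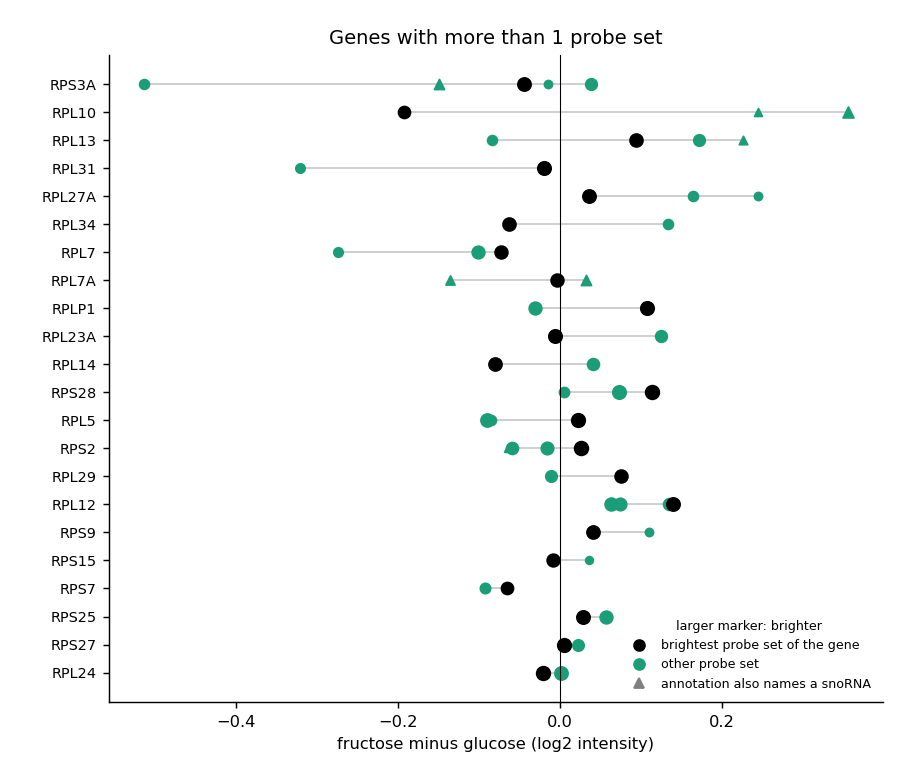
Difference between the sugars (x axis, fructose minus glucose, log2 intensity) of every probe set of the 22 genes with more than 1, with the brightest in black, the others in green, triangles where the annotation also names a snoRNA, and larger markers for brighter probe sets. The widest rows, RPS3A and RPL10, span 0.55, and most black points lie within 0.1 of 0.

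The genes around the ribosomal proteins were read from lists, with 0 members called by limma in each. Of 18 other mRNAs with a TOP tract, mostly translation factors, 12 were higher and 6 lower with a median of 0.03, and EIF3E, a subunit of initiation factor 3, was the single one with an unadjusted p under 0.05 (-0.19, limma adjusted p = 0.32), where 13.1% of all tested probe sets have one. The elongation factors EEF1A1 and EEF2 differed by 0.00 and 0.06. Of 17 genes of mTORC1 and TOP regulation 3 had an unadjusted p under 0.05, all higher in fructose, where 7.65% of all tested probe sets are. These were the mTORC1 subunits MLST8 (0.30, limma adjusted p = 0.20) and RPTOR (0.26, adjusted p = 0.26) and the translational repressor EIF4EBP1 (0.22, adjusted p = 0.36), and the list's median was 0.06.

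Of 14 chaperones and importers of ribosomal proteins 2 had an unadjusted p under 0.05, both lower in fructose (5.43% of all tested probe sets). LTV1, which escorts the small subunit out of the nucleus, differed by -0.24 (limma adjusted p = 0.23), and RPF2, which brings the 5S particle to the large subunit, by -0.16 (limma adjusted p = 0.34). Of the 9 measured genes of the MDM2 and p53 list 2 had an unadjusted p under 0.05, CDKN1A (0.35, limma adjusted p = 0.19) and TP53I3 (0.32, limma adjusted p = 0.33), both higher in fructose as are 7.65% of all tested probe sets at that level, and MDM2 differed by 0.03. MDA-MB-231 is known to carry mutant p53. Of 8 factors that bind at ribosomal protein promoters 1 was higher and 3 were lower at that level, beside 7.65% and 5.43% of all tested probe sets. They were MYC (0.39, limma adjusted p = 0.26), TBPL1 (-0.32, limma adjusted p = 0.28), GABPB1 (-0.27, limma adjusted p = 0.32) and SP1 (-0.16). Of 7 ribosomal proteins or paralogs outside the naming rule 5 were measured, with a median of 0.07 and none at an unadjusted p under 0.05; FAU, whose product yields the small-subunit protein eS30, differed by 0.07.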

How the data were processed

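The 6 arrays were deposited as 1 table of intensity values per probe set, which the authors produced by RMA according to the submitters' processing notes. The version was not given in the sources used. RMA corrects background, normalizes between arrays and summarises probes, so it damps differences shared by most probe sets. The deposited values reach 9287 and were read as linear, and log2 was taken without a pseudocount. The 4091 of 32321 rows numbered below the lowest annotated identifier were taken as controls and left out. Names came from the platform annotation, which can be old.

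Fructose was compared with glucose over all 28230 probe sets with lmFit and eBayes of limma 3.58.1 (R 4.3.3; two-sided, no covariate, Benjamini-Hochberg adjustment, threshold 0.05); the script was tested on simulated data. Medians over genes carry no test. Hosts are genes whose RefSeq span holds a snoRNA gene; the planned restriction to the same strand could not be applied. The 13 probe sets joining a gene with its own pseudogenes, which alone measure 6 genes, and 16 joining other genes were left out. Members and lists were chosen with earlier results of these data known.

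Named members are the 8 with the smallest p, the 4 highest and 4 lowest differences above the median brightness, the 3 brightest and 3 dimmest, paralogs with parents, RPL5, RPL11, RPS6, RPL22 and RPSA, the 4 C/D hosts with the smallest p, and up to 3 genes of each list. RPL27A, RPS19, RPS3, RPS23, RPLP2, RPS3A, the snoRNAs, SP1, FAU, EEF1A1, EEF2 and MDM2 were chosen after their values were seen. Same-numbered arrays did not deviate together (correlations -0.0255, -0.0207 and -0.0538), so numbers were not taken as pairs. The settings tried as alternatives were leaving out each array, a replicate block, another quantile normalization, centring, bright probe sets alone, trended robust variances, array weights, controls kept, the mean probe set, single-symbol probe sets, no paralogs and other host definitions.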

Additional observations from a re-analysis of the deposited data

How the results depend on the processing

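In each of 17 settings 0 members passed limma's adjusted threshold. The number at an unadjusted p under 0.05 ran from 0 (without glucose replicate 2) to 9 (trended and robust variances). It was 2 as reported and 1 with the replicate block, which also called 0 members. The share of all tested probe sets at that level was computed for the reported fit alone (13.1%). Whether the counts of the other settings differ from their own background cannot be read from them. Same-numbered arrays share only a number. The median over the members, 0.00057, ran from -0.014 to 0.017 with single arrays left out and became -0.025 when each array was centred on its median. The gap between the subunits, -0.0049, ran from -0.023 to 0.0021 with arrays left out. The gap of C/D hosts, 0.0031, ran from -0.0097 to 0.015 with arrays left out, and was -0.011 with the mean of each gene's probe sets and 0.017 with probe sets joined to pseudogenes, a setting chosen after seeing the data. Of 22 named members 16 kept their sign throughout, and the smallest adjusted p in any setting was 0.059 (RPL12, trended and robust variances). The other 6 all lie near 0. Centring gave -0.0035 for RPL5, -0.00013 for RPS2 and -0.021 for RPS27, quantile normalization gave -0.021 for RPS2, and array weights gave 0.0021 for RPL3L. Leaving out single arrays gave -0.077 to 0.065 for RPL3L, -0.0014 to 0.039 for RPL5, -0.016 to 0.031 for RPS27, -0.029 to 0.088 for RPS27L and -0.016 to 0.0053 for RPS6. The cause of these changes was not tested. With 3 arrays a group the test also left differences of 0.14 (RPL12) and -0.38 (RPL17) uncalled.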
